A study of Mus musculus with 10 samples.

Results

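A group of 10 acute-phase genes of the mouse liver was followed across AdVEGFA and AdCMV gene transfer: the serum amyloid A genes Saa1, Saa2, Saa3 and Saa4, the orosomucoids Orm1 and Orm2, haptoglobin (Hp), hemopexin (Hpx), lipocalin 2 (Lcn2) and serum amyloid P component (Apcs). They were taken by gene symbol, as 10 of the 24016 transcripts in the deposited expression table. The list was chosen by function with the RPKM of these genes in both groups already seen, so differences between the groups are described and not tested. Livers of young adult male C57BL/6 mice were collected on day 6 after tail vein injection of an adenovirus. The AdVEGFA group carried VEGF-A under the CMV promoter, which is active in many cell types. The AdCMV group carried a vector with the promoter and no transgene. Each group held 5 mice, labelled as biological replicates. All 10 animals had received adenovirus and no uninjected animal was analysed here, so the control levels are those of livers that had been given the empty vector. Total RNA of the whole liver was sequenced after ribosomal RNA was removed, and levels were given as RPKM, reads divided by transcript length and by the size of the library. In such bulk tissue, fewer cells of a type and less RNA per cell cannot be told apart.

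The acute-phase response is the change in plasma proteins that the liver makes in infection or injury. Interleukin-6 acting through STAT3, together with interleukin-1 and TNF acting through NF-kappaB and C/EBP factors, switches hepatocytes toward amyloid A proteins, orosomucoids, haptoglobin and related products, while albumin and other negative acute-phase proteins fall. Saa1 and Saa2 are the inducible amyloid A proteins of hepatocytes that ride on high-density lipoprotein. Saa3 is also made outside hepatocytes, by macrophages and fat cells. Saa4 is made constitutively.

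The 4 amyloid A genes lay side by side on chromosome 7 in the deposited mm9 annotation, with Saa3 at chr7:53967368-53971046, Saa4 at chr7:53983369-53987913 and Saa1 at chr7:53995869-53998350 on the minus strand and Saa2 at chr7:54007203-54009684 on the plus strand. Orm1 and Orm2 were neighbours on chromosome 4, at chr4:63005600-63009196 and chr4:63023483-63026911. Promoter sequence was read from RefSeq on GRCm38.p6, a different build from the mm9 positions, and 8 of the 10 genes had an entry. The 250 bases before the start site are shown for Saa1 (chr7:46742981-46743230, minus strand), Saa2 (chr7:46751583-46751832, plus strand), Saa3 (chr7:46715677-46715926, minus strand) and Lcn2 (chr2:32387740-32387989, minus strand), because these 4 genes carried the widest differences between mice. Capitals mark matches to the C/EBP letters TTGCNNAA on either strand.
Saa1: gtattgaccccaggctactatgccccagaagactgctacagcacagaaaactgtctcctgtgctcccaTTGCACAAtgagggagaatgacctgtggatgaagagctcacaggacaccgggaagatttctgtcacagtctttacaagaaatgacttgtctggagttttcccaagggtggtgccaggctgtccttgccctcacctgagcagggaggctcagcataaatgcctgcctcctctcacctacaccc
Saa2: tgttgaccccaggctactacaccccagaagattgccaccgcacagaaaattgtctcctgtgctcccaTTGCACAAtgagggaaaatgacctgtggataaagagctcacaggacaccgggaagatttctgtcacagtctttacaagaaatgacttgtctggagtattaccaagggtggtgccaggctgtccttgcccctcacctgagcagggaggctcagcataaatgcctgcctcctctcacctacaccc
Saa3: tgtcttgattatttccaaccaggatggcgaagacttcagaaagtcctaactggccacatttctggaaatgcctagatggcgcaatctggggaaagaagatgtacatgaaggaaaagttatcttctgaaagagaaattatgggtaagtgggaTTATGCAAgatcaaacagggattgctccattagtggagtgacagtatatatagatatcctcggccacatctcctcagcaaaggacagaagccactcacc
Lcn2: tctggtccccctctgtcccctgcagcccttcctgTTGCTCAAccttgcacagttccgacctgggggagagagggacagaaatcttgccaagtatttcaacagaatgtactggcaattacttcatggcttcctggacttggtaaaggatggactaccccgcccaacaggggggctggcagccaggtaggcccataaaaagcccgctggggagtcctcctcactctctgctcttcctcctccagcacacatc
The Saa1 and Saa2 promoters were identical at 94.8% of 251 aligned positions, and both held TTGCACAA, which began 182 bases before the Saa1 start site and 183 bases before that of Saa2. Saa1 and Saa3 shared 48.2% of aligned positions, and the match in Saa3, TTATGCAA, began 99 bases before its start site. The C/EBP letters were found in 7 of the 8 promoters, the exception being Apcs, and in 9.56% of all 32851 promoters of the same length. The palindromic STAT letters TTCNNNGAA were found in Apcs and in none of the other 7, against 7.02% of all promoters. The kappaB consensus was found in none of the 8, against 7.25% of all promoters. The motifs do not overlap one another in these windows, a match is a description of letters, and a missing match says only that these letters were absent from these 250 bases.

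Near-identical copies limit how well some of these genes can be separated. Annotated Saa1 and Saa2 transcripts were 93.9% identical and shared 74 of the 560 windows of 50 bases in Saa1, whereas Saa1 and Saa3 were 61.0% identical and shared 9 of 560. Orm1 and Orm2 transcripts were 91.0% identical and shared 148 of 726 windows. The study normalised its libraries to uniquely mapped tags. Whether reads that fit both copies were left out of the gene counts, and the read length, are not given in the sources used here. Reads summed over genes exceeded the tags in each library, so a read may be counted on more than 1 transcript. On which genes this happened was not examined. Levels of Saa1 against Saa2 and of Orm1 against Orm2 are therefore uncertain. The same holds for Saa3 in AdVEGFA replicate 4, with 125 reads beside 21012 of Saa1.

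Libraries held 5758959 to 13494002 tags in the AdCMV group and 5596564 to 8133954 in the AdVEGFA group, and 3 reads on a transcript of 1 kb corresponded to 0.222 to 0.536 RPKM. Every member was measured far above this limit, with at least 20 reads in each mouse. Reads summed over genes exceeded the tags in each library, for example 10743856 against 9429223 in AdCMV replicate 4. A read may therefore be counted on more than 1 transcript, and shares of the reads on genes are shares of that sum. Of it, 36.6% ± 12.2 in AdCMV mice and 16.3% ± 7.92 in AdVEGFA mice (SD, n = 5) came from major urinary protein transcripts. The median gene differed by 0.38 on the log2 scale toward AdVEGFA. When libraries were rescaled by median ratios, that median was -0.0044, so a log2 fold change between 0 and about 0.38 on the RPKM scale changed sign or came near 0 on this one. One mouse, AdVEGFA replicate 4, stood apart in the genes described here, and fold changes of the members and counts of called genes are therefore given with and without it. Hepatocyte transcripts dominated all 10 livers, with 10 marker genes summing to 4279 to 5857 RPKM in AdCMV mice and 5334 to 7163 RPKM in AdVEGFA mice.

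Saa3 was the member with the widest difference between the groups. Its level was 473, 934, 672, 223 and 197 RPKM in AdCMV replicates 1 to 5 and 13.6, 15.1, 7.83, 29.3 and 5.66 RPKM in AdVEGFA replicates 1 to 5. The lowest AdCMV mouse therefore lay well above the highest AdVEGFA mouse, which was replicate 4. Saa3 was the only member whose groups did not overlap when all mice were counted, a pattern with AdVEGFA below AdCMV that 1.29% of the 13933 genes tested showed. The reverse arrangement was seen in 0 members, against 14.3% of genes, or 16.3% with replicate 4 left out. Mean levels were 499.7 ± 311 RPKM in AdCMV and 14.3 ± 9.25 RPKM in AdVEGFA (SD, n = 5), a 35.0-fold difference, and 47.4-fold when AdVEGFA replicate 4 was left out. On log2(RPKM + 0.1) the fold change was -5.10 ± 0.44 (SE), -5.41 ± 0.41 without that mouse and -5.50 after median-ratio scaling. Saa3 read counts were 596 to 6615 in AdCMV mice and 20 to 125 in AdVEGFA mice, so the AdVEGFA levels rest on few reads.

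Macrophages are a source of Saa3, and their markers were counted beside it. The summed level of 12 macrophage markers, without rescaling, was 164 to 368 RPKM in AdCMV mice and 331 to 511 RPKM in AdVEGFA mice. The ranges overlapped, with AdVEGFA replicates 4 and 5, at 356 and 331 RPKM, under the highest AdCMV mouse. Of all genes tested, 13% were called higher and 1.54% lower. By limma, 3 of the 12 rose and none fell, namely Clec4f (log2 fold change 2.15 ± 0.34, adjusted p = 0.00021), Vsig4 (2.14 ± 0.32, adjusted p = 0.00011) and Csf1r (1.18 ± 0.26, adjusted p = 0.0035), of which Csf1r was not called after median-ratio scaling, and the count without AdVEGFA replicate 4 was also 3. T and NK cell markers fell in 6 of 10 and rose in none, with Prf1 at -2.10 ± 0.51 (adjusted p = 0.0071), Gzmb at -1.98 ± 0.40 (adjusted p = 0.0018), Cd3g at -1.48 ± 0.47 (adjusted p = 0.029) and Cd3e at -1.40 ± 0.39 (adjusted p = 0.016), and 4 of 10 without AdVEGFA replicate 4. Prf1 passed the expression filter through the AdCMV mean alone, so it could only be called lower. The summed level of all markers on that list, also those under the expression filter, was 16.7 to 48.4 RPKM in AdCMV mice and 12.2 to 23.0 RPKM in AdVEGFA mice. The part of these cells in the Saa3 difference was not tested.

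Saa4, the constitutive family member, was also lower in the AdVEGFA group, by a smaller margin. It measured 117, 85.3, 94.2, 95.9 and 75.6 RPKM in AdCMV replicates 1 to 5 and 35.9, 30.8, 29.6, 86.3 and 43.2 RPKM in AdVEGFA replicates 1 to 5. Only AdVEGFA replicate 4 reached into the AdCMV range, and the other 4 AdVEGFA mice were below every AdCMV mouse. The log2 fold change was -1.16 ± 0.26 (SE), -1.42 ± 0.20 without replicate 4 and -1.56 after median-ratio scaling.

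Saa1 and Saa2 were lower in 4 of the 5 AdVEGFA mice and very high in the fifth. Saa1 was 389, 337, 212, 288 and 216 RPKM in AdCMV replicates 1 to 5 and 86.8, 145.8, 30.3, 4298 and 48.5 RPKM in AdVEGFA replicates 1 to 5. Saa2 was 258, 159.9, 173, 144 and 104 RPKM in the AdCMV mice and 27.1, 67.1, 10.9, 3402 and 38.9 RPKM in the AdVEGFA mice, in the same order. For both genes, AdVEGFA replicates 1, 2, 3 and 5 lay below every AdCMV mouse and replicate 4 lay above every other mouse, so the groups overlapped only through that animal. The mean Saa1 level was 288 ± 76.6 RPKM in AdCMV, 922 ± 1888 RPKM in AdVEGFA (SD, n = 5) and 77.9 ± 51.1 RPKM in the 4 other AdVEGFA mice. Without replicate 4 the log2 fold changes were -2.09 ± 0.35 for Saa1 and -2.43 ± 0.39 for Saa2 (SE), against -0.89 ± 0.89 and -1.07 ± 1.01 with it. In the 4 other AdVEGFA mice Saa2 averaged 36.0 ± 23.7 RPKM, against 168 ± 56.8 RPKM in AdCMV. With replicate 4 left out, Saa1, Saa2, Saa3 and Saa4 each had every AdVEGFA mouse below every AdCMV mouse, as did 1.77% of genes tested.

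Lcn2, the lipocalin that binds bacterial siderophores and is made by hepatocytes and neutrophils, had the same arrangement with more overlap. Its level was 44.0, 37.5, 68.0, 36.1 and 28.4 RPKM in AdCMV replicates 1 to 5 and 9.06, 36.8, 10.8, 1599 and 16.4 RPKM in AdVEGFA replicates 1 to 5. AdVEGFA replicates 1, 3 and 5 lay below the AdCMV range, replicate 2 lay within it and replicate 4 lay far above it. The log2 fold change was -0.05 ± 0.97 (SE) with all mice and -1.39 ± 0.34 without replicate 4. Lcn2 reads numbered 43, 231, 51, 10991 and 93 in the 5 AdVEGFA libraries.

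Neutrophil markers were counted beside Lcn2. The summed level of 10 markers, 9 of which passed the expression filter, was 244 RPKM in AdVEGFA replicate 4, 44.8 to 98.9 RPKM in the other AdVEGFA mice and 40.6 to 134.9 RPKM in AdCMV mice. Most of the sum in replicate 4 came from S100a8 at 107 RPKM and S100a9 at 79.3 RPKM, which were named after their values were seen. Granule genes were low throughout. Of all genes tested, 13% were called higher and 1.54% lower. Here 4 of the 9 markers were called higher and none lower, namely Mpo, Elane, Camp and Ngp. All 4 passed the expression filter through the AdVEGFA mean alone, so a call could only be in that direction, and Camp was not called after median-ratio scaling. Mpo had no reads in any AdCMV mouse and 9 to 92 reads in the AdVEGFA mice, and Elane had at most 7 reads in any mouse. Without AdVEGFA replicate 4, the count was 2, and Ngp was then under the expression filter. The part of neutrophils in the Lcn2 level of that mouse was not tested.

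**Figure D1:**
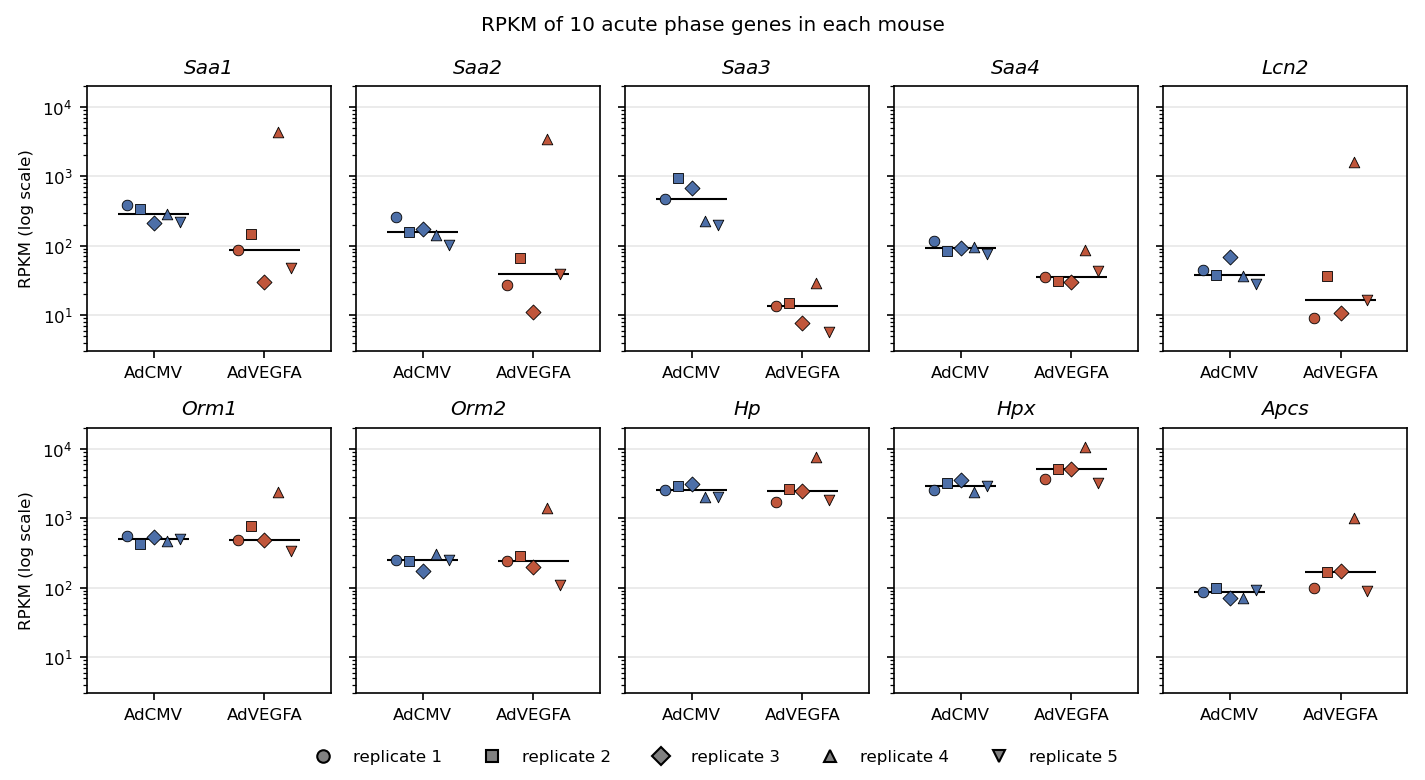
RPKM of the 10 acute-phase genes in each mouse, on a log axis, with AdCMV mice in blue, AdVEGFA mice in red, a symbol for each replicate number and a bar at the group median. AdVEGFA replicate 4 (upward triangle) was the highest of all 10 mice for every gene other than Saa3 and Saa4, and Saa3 separated the groups with 197 RPKM as the lowest AdCMV value and 29.3 RPKM as the highest AdVEGFA value.

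The orosomucoids, lipid-binding plasma glycoproteins, differed little between the groups outside replicate 4. Orm1 was 558, 431, 541, 472 and 505 RPKM in AdCMV replicates 1 to 5 and 492, 785, 479, 2409 and 337 RPKM in AdVEGFA replicates 1 to 5. Orm2 was 252, 241, 176, 302 and 255 RPKM in the AdCMV mice and 246, 286, 199, 1421 and 110.2 RPKM in the AdVEGFA mice. With replicate 4 set aside, the AdVEGFA mice lay within, above and below the AdCMV range for Orm1 and within or below it for Orm2. The log2 fold changes were 0.45 ± 0.39 for Orm1 and 0.28 ± 0.46 for Orm2 (SE), and 0.00 ± 0.24 and -0.28 ± 0.26 without replicate 4. After median-ratio scaling they were 0.05 and -0.12, so the sign for Orm2 depended on the scaling as well as on that mouse.

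Haptoglobin, which captures free hemoglobin, and hemopexin, which captures free heme, were the most abundant members per length in all 10 livers, hemopexin first and haptoglobin next. Hp was 2561, 2911, 3111, 2044 and 2054 RPKM in AdCMV replicates 1 to 5 and 1733, 2667, 2512, 7756 and 1841 RPKM in AdVEGFA replicates 1 to 5. Hpx was 2582, 3176, 3550.3, 2382 and 2923 RPKM in the AdCMV mice and 3626, 5104, 5113, 10729 and 3247 RPKM in the AdVEGFA mice. The Hp ranges overlapped, while Hpx was above the AdCMV range in AdVEGFA replicates 1 to 4 and inside it in replicate 5. The log2 fold change was 0.15 ± 0.35 for Hp and 0.80 ± 0.31 for Hpx (SE), and -0.22 ± 0.24 and 0.53 ± 0.25 without replicate 4. After median-ratio scaling Hpx was at 0.40 and Hp at -0.25, and with that mouse also left out they were at 0.15 and -0.60, so the sign of Hp depended on the mice and the scaling.

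The ratio of Hpx to Hp within a library does not depend on scaling. It was 1.01, 1.09, 1.14, 1.17 and 1.42 in AdCMV replicates 1 to 5 and 2.09, 1.91, 2.04, 1.38 and 1.76 in AdVEGFA replicates 1 to 5. Replicate 4 of the AdVEGFA group lay inside the AdCMV range and the other 4 AdVEGFA mice lay above it. The ratio was 1.17 ± 0.156 in AdCMV and 1.84 ± 0.284 in AdVEGFA (SD, n = 5), or 1.95 ± 0.146 in the 4 AdVEGFA mice other than replicate 4.

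Apcs, the pentraxin that is the main acute-phase pentraxin of the mouse, was the member with the highest positive fold change. Its level was 85.8, 99.7, 71.5, 71.3 and 91.8 RPKM in AdCMV replicates 1 to 5 and 99.2, 170.2, 173, 995 and 90.8 RPKM in AdVEGFA replicates 1 to 5. AdVEGFA replicates 2, 3 and 4 lay above the AdCMV range, and replicates 1 and 5 lay inside it. The log2 fold change was 1.21 ± 0.46 (SE), 0.62 ± 0.23 without replicate 4 and 0.81 after median-ratio scaling.

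Counted with the threshold used for every gene, which asks for a log2 fold change over 1 in size and an adjusted p under 0.05 by limma, 2 of the 10 members were lower in the AdVEGFA group, Saa3 and Saa4, and 0 were higher. Among all 13933 genes tested, 1.54% were called lower and 13% higher. Without replicate 4, 5 members were lower, with Saa1, Saa2 and Lcn2 added, and 0 higher, against 1.31% and 12.7% of genes. After median-ratio scaling the counts were 2 lower and 0 higher, against 3.14% and 7.77% of genes, and with replicate 4 also left out they were 5 lower and 0 higher, against 2.87% and 7.74%. The median log2 fold change of the members was 0.05 with all mice and -0.84 without replicate 4, and over all genes it was 0.38 and 0.37. The members were proposed with results of this contrast known, so these counts are a description and nothing is read from them.

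**Figure D2:**
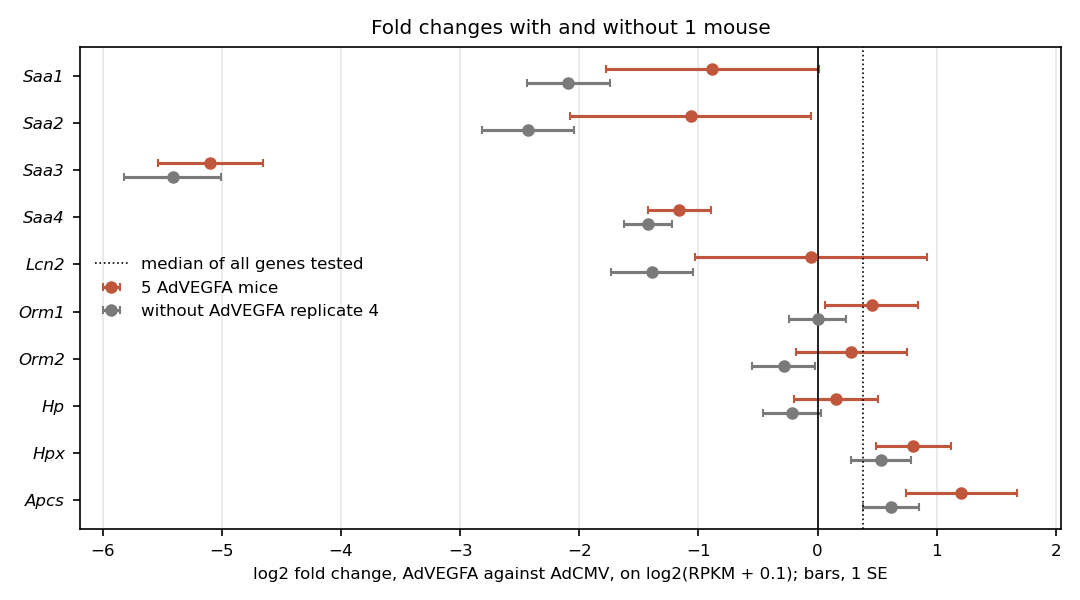
Log2 fold change of each member, AdVEGFA against AdCMV, on log2(RPKM + 0.1), with all 5 AdVEGFA mice (red) and without AdVEGFA replicate 4 (grey); bars are 1 SE and the dotted line is the median of all genes tested, 0.38. Leaving out the mouse moved Saa1 from -0.89 to -2.09 and Lcn2 from -0.05 to -1.39, and moved Saa3 from -5.10 to -5.41.

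Saa3 parted from the other amyloid A genes within single livers. The ratio of Saa1 to Saa3 was 0.823, 0.361, 0.316, 1.29 and 1.10 in AdCMV replicates 1 to 5 and 6.40, 9.64, 3.87, 146.8 and 8.56 in AdVEGFA replicates 1 to 5. Every AdVEGFA mouse lay above every AdCMV mouse. Saa3 supplied 38.2, 61.6, 58.3, 29.7 and 33.2% of the summed RPKM of the 4 amyloid A genes in the AdCMV mice and 8.30, 5.84, 9.94, 0.375 and 4.16% in the AdVEGFA mice. In replicate 4, Saa1 and Saa2 together carried almost all of that sum. In each AdVEGFA mouse Saa3 was the smallest of the 4 parts. The Saa1 to Saa2 ratio overlapped between the groups, at 1.23 to 2.11 in AdCMV mice and 1.25 to 3.20 in AdVEGFA mice.

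**Figure D3:**
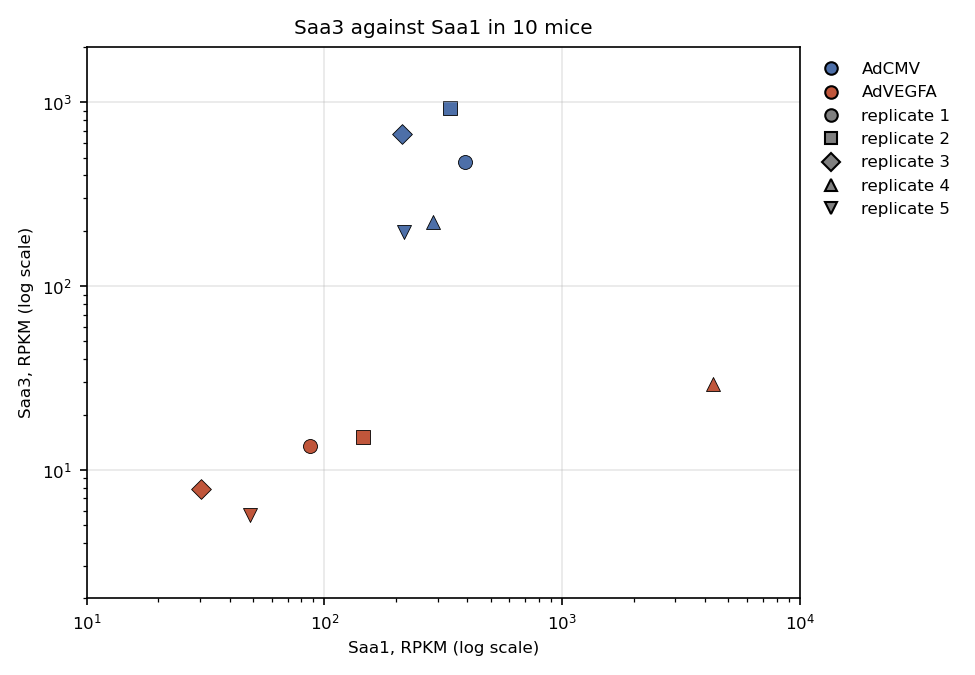
Saa3 against Saa1 in each mouse, both in RPKM on log axes, with AdCMV in blue, AdVEGFA in red and a symbol for each replicate number. AdVEGFA replicate 4 lay furthest to the right, at 4298 RPKM of Saa1, and at 29.3 RPKM of Saa3, below every AdCMV mouse.

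**Figure D4:**
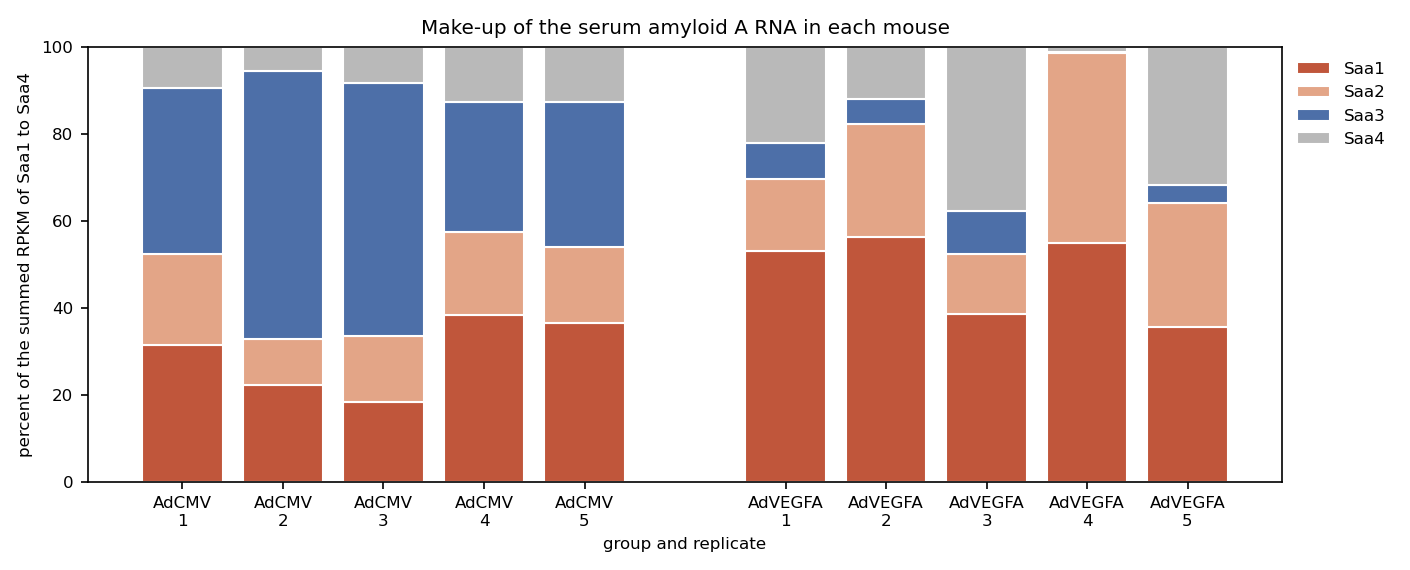
Share of Saa1, Saa2, Saa3 and Saa4 in their summed RPKM, in percent, for each mouse. The Saa3 share (blue) was 29.7 to 61.6% in AdCMV mice and 0.375 to 9.94% in AdVEGFA mice.

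Acute-phase genes led those by which AdVEGFA replicate 4 exceeded the other 9 mice. Among the 7405 genes with a mean over 5 RPKM, ranked by its level over that of the highest other mouse on RPKM + 0.1, Lcn2 was in place 1 at 23.5-fold, Saa2 in place 2 at 13.2-fold, Saa1 in place 4 at 11.0-fold, Apcs in place 6 at 5.75-fold, Orm2 in place 8 at 4.70-fold and Orm1 in place 13 at 3.07-fold. Hp was in place 23, Hpx in place 36, Saa4 in place 4755 and Saa3 in place 7384. The remaining genes in the first 5 places were Serpina3n, a serine protease inhibitor of the acute phase, at 11.2-fold and Lrg1, an acute-phase plasma glycoprotein, at 6.90-fold. The members took 3.50% of the reads on genes in this mouse, 0.734 to 1.18% in the other AdVEGFA mice and 0.658 to 1.04% in AdCMV mice.

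Across lists, replicate 4 was the highest of the 10 mice for 8 of 10 members and 16 of 21 other positive acute-phase genes, against 22.4% of all genes tested. It was highest for 5 of 9 negative acute-phase genes, 1 of 12 genes of IL-6 family signalling, 4 of 15 of IL-1, TNF and NF-kappaB signalling, 1 of 8 transcription factors, 1 of 12 macrophage markers, 6 of 9 neutrophil markers and 1 of 10 hepatocyte markers. Its endothelial markers summed to 223 RPKM, inside the 204 to 225 RPKM of the AdVEGFA group and above the 23.6 to 51.8 RPKM of AdCMV mice. Replicate 4 was highest for 3 of 8 endothelial markers, and Kdr, at 16.0 RPKM, was the lowest of its group. What set this mouse apart was not tested.

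**Figure D5:**
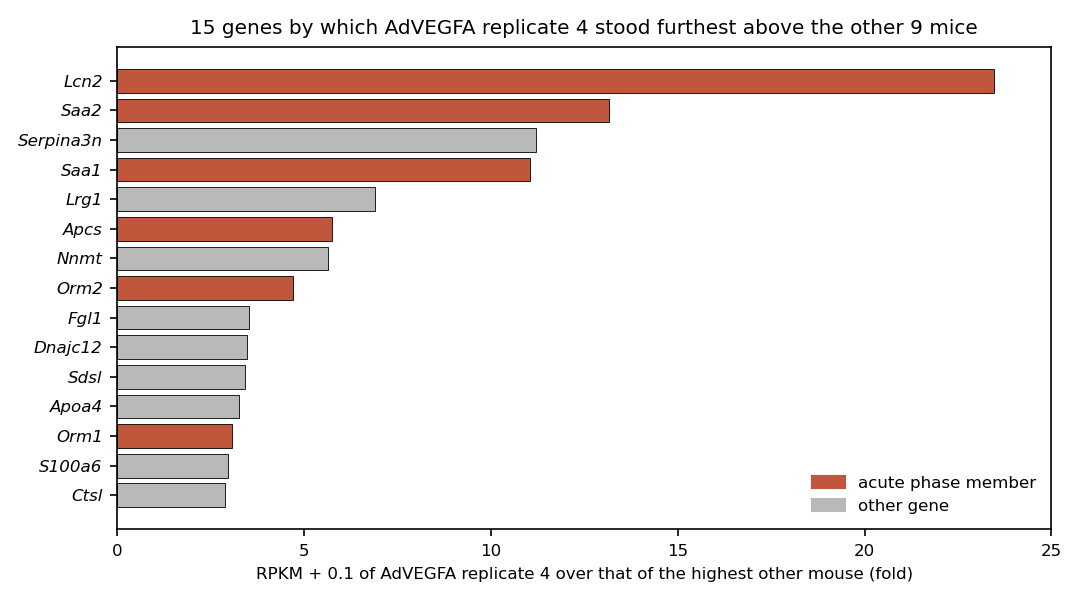
The 15 genes by which AdVEGFA replicate 4 exceeded the highest of the other 9 mice by the largest factor, on RPKM + 0.1, among 7405 genes with a mean over 5 RPKM. Members (red) took 6 of the bars, led by Lcn2 at 23.5-fold and Saa2 at 13.2-fold.

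Mice of one group also differed from each other in these genes. Spread was taken on RPKM without rescaling, and median-ratio factors ran from 0.664 in AdCMV replicate 4 to 1.229 in AdCMV replicate 3. The SDs and percentages below, also the low SD of Orm1, therefore hold for the RPKM scale only. In the AdCMV group the SD of log2 levels was 0.98 for Saa3, higher than for 97.7% of the 7405 genes, while that of Orm1 was 0.15 and higher than for only 2.57%. Saa1 was at 0.39, close to the median of those genes. In the AdVEGFA group without replicate 4, Saa2 had an SD of 1.09, Saa1 of 0.99 and Lcn2 of 0.90, each higher than for at least 99.0% of genes, and Saa4 had an SD of 0.25, close to the median. The 4 AdVEGFA mice with low Saa1 thus still varied more than nearly all other transcripts in that gene, from 30.3 to 145.8 RPKM.

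How members varied together was described by Pearson's r of log2 levels after the group means were subtracted. These values are over mice that share libraries and depth, and genes are not independent. RPKM was not rescaled for them or for the nearest genes named next, so differences in library scale enter r. Saa1 and Saa2 had r = 0.98 over 10 mice and 0.81 over the 9 mice without AdVEGFA replicate 4, Hp and Hpx 0.96 and 0.85, and Orm1 and Orm2 0.95 and 0.69. Lcn2 and Saa2 had 0.97 and 0.74. For Saa3, r was 0.63 and 0.49 with Saa1 and 0.45 and -0.03 with Saa4, and its highest pairing was with Hp, at 0.72 and 0.68. The median over all 45 pairs was 0.867 with replicate 4 and 0.381 without it, so most of the likeness rested on that mouse.

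The genes outside the members whose levels most resembled theirs over the 10 mice were Manf, Ppdpf, Serpina3n, Clu and Lrg1 for Saa1 (r = 0.97 to 0.91), and Rtp3, Ctsl, Plpp5, 0610005C13Rik and Rogdi for Lcn2 (r = 0.97 to 0.94). Those nearest to Orm2 were Lrg1, Clu, Manf, Itih3 and Ppdpf, and those nearest to Hp were Rpp21, Ctsl, 0610005C13Rik, 1810058I24Rik and Slc50a1. Saa3 had other neighbours, Higd1a, Plpp1, Cox7c, Pla2g12b and Anapc13 (r = 0.97 to 0.95). They were drawn from 7395 genes over only 10 mice. Over the 9 mice without AdVEGFA replicate 4, the 5 nearest genes of each of these 5 members shared none with the lists above, and were for example Cyp7b1 and Sco2 for Saa1, Gnptg and Pold4 for Saa3, Miip and Mup4 for Lcn2, Ccl19 and Apoa5 for Orm2, and Rfc4 and Dio1 for Hp.

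Other positive acute-phase genes moved in both directions. Of 21 tested, 2 rose and 2 fell, against 13% of all genes called higher and 1.54% called lower. Hamp, the iron hormone hepcidin, rose by 1.88 ± 0.26 (log2, SE, limma adjusted p = 4.1e-05) and Itih3, a hyaluronan-binding inhibitor chain, by 1.22 ± 0.30 (adjusted p = 0.0068), and Itih3 was not called without replicate 4 or after median-ratio scaling. Mt2, a metallothionein, was at -3.17 ± 0.53 (adjusted p = 0.00030) and Il1rn, the interleukin-1 receptor antagonist, at -1.31 ± 0.24 (adjusted p = 0.00076). Without replicate 4, 1 of the 21 was higher and 4 were lower, and the same counts were found after median-ratio scaling. Lrg1 ranged from 86.8 to 158 RPKM in AdCMV mice and reached 1105 RPKM in AdVEGFA replicate 4, and Serpina3n ranged from 45.3 to 77.1 RPKM and reached 865 RPKM. The other 4 AdVEGFA mice lay between 92.4 and 160.2 RPKM for Lrg1 and between 47.2 and 63.6 RPKM for Serpina3n. These levels were in or just above the AdCMV range, whereas for Saa1 the same mice lay below it. Lbp and Mt1, on the same list, had the arrangement of Saa1. Lbp was 28.8 to 32.8 RPKM in AdCMV mice, 11.2 to 20.3 RPKM in the other 4 AdVEGFA mice and 48.8 RPKM in replicate 4. Mt1 was at 56.1 to 164 RPKM, 13.6 to 38.3 RPKM and 242 RPKM, in the same order. Both were among the 4 genes called lower without replicate 4.

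Negative acute-phase genes were higher in the AdVEGFA group in 5 of 9 cases and lower in none, against 13% of all genes higher. After median-ratio scaling only 1 of the 9 was called higher, against 7.77% of all genes. The count was 4 without AdVEGFA replicate 4, where transferrin (Trf) moved from 1.00 to 0.81 on the log2 scale, and also 4 when any one of AdCMV replicates 1 to 4 was left out. Albumin (Alb) was at 1.14 ± 0.28 (limma adjusted p = 0.0077), apolipoprotein A-I (Apoa1) at 1.17 ± 0.23 (adjusted p = 0.0013), fetuin-A (Ahsg) at 1.67 ± 0.25 (adjusted p = 0.00012) and fetuin-B (Fetub) at 1.16 ± 0.22 (adjusted p = 0.00084) on the log2 scale. Ahsg was the gene that passed under both scalings. In replicate 4, where 8 of the 10 members were highest, Ahsg was also the highest of the 10 mice at 7865 RPKM. Alb, at 16524 RPKM, lay within the AdVEGFA range. Replicate 4 was the highest mouse for 5 of the 9 negative genes. It was the lowest of the 10 mice for Serpina6, at 3.46 RPKM, and the lowest of its group for Ttr (3953 RPKM) and Apoa1 (4059 RPKM).

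RNA of genes for the upstream signals of the members was measured in the same livers. Cytokine protein and the activity of STAT3 and NF-kappaB were not measured in these data. Il6 itself had at most 1 read in any mouse and was not tested. Of the 12 IL-6 family genes tested, 1 rose, the oncostatin M receptor Osmr (log2 fold change 1.20 ± 0.32, limma adjusted p = 0.013). After median-ratio scaling 0 rose, and 1 did without AdVEGFA replicate 4. Of all genes tested, 13%, 7.77% and 12.7% were called higher, in the same order. The receptor genes Il6ra (0.51 ± 0.27, adjusted p = 0.16) and Il6st (0.37 ± 0.23, adjusted p = 0.24), the transducer Stat3 (0.06 ± 0.20, adjusted p = 0.84) and the feedback inhibitor Socs3 (-0.54 ± 0.35, adjusted p = 0.26) did not pass. After median-ratio scaling Il6st was at -0.03 and Stat3 at -0.34, so their signs depended on the scaling. Socs3 was 3.84 RPKM in AdVEGFA replicate 4, the highest of its group, and inside the AdCMV range of 1.52 to 6.14 RPKM.

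Among 15 genes of IL-1, TNF and NF-kappaB signalling, Il1a rose by 1.18 ± 0.27 (limma adjusted p = 0.0049) and was called without AdVEGFA replicate 4 but not after median-ratio scaling. Il1b was at -0.29 ± 0.39 (adjusted p = 0.59), Il1r1 at 0.60 ± 0.25 (adjusted p = 0.086) and Tnf at -1.16 ± 0.44 (adjusted p = 0.064). After median-ratio scaling 2 genes of this list were called lower, Tnf and Tnfaip3, against 3.14% of all genes. None of the 8 transcription factors of acute-phase genes passed by limma at either scaling or without replicate 4, with Cebpa at 0.17 ± 0.21 (adjusted p = 0.55), Cebpb at -0.15 ± 0.22 (adjusted p = 0.63) and Cebpd at 0.38 ± 0.25 (adjusted p = 0.26). Cebpa was at -0.23 and Cebpd at -0.01 after median-ratio scaling.

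Of 12 genes for receptors and clearance of these proteins, 2 were called higher and 1 lower. Without AdVEGFA replicate 4 they were 3 and 1, with P2rx7 added. Of all genes tested, 13% were called higher and 1.54% lower, and 12.7% and 1.31% without that mouse. Slc22a17, a lipocalin 2 receptor, was called higher at 2.85 ± 0.40 (limma adjusted p = 4.8e-05) from 1 to 2 reads in AdCMV mice and 8 to 36 in AdVEGFA mice, and since it passed the expression filter through the AdVEGFA mean alone it could only be called higher. Cd36, a scavenger receptor that binds amyloid A, was at 1.46 ± 0.33 (adjusted p = 0.0041), and Tlr2, a pattern receptor that amyloid A engages, was at -1.13 ± 0.23 (adjusted p = 0.0017). Cd36 and Tlr2 passed under both scalings. Hepatocyte markers were called in 0 of 10 cases in either direction, with or without replicate 4, and 1 was lower after median-ratio scaling, Tdo2, at -0.67 ± 0.23 on the main scale. Markers of endothelial cells, which respond to VEGF-A, rose in 8 of 8, also without replicate 4, with Emcn at 5.33 ± 0.29 (adjusted p = 2.4e-09), Tie1 at 3.02 ± 0.27 (adjusted p = 4.0e-07), Kdr at 2.78 ± 0.29 (adjusted p = 2.6e-06) and Pecam1 at 2.61 ± 0.22 (adjusted p = 3.3e-07). The part of these marker differences in the members' levels was not tested.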

How the data were processed

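RNA of 10 mouse livers, 5 per group, was sequenced. The deposited table gave RPKM per transcript, which the authors made by mapping reads to mm9 with TopHat and counting with HOMER, per the submitters' processing notes; versions are not used here. A further 2 columns held the authors' own comparison and were not used. Of 24016 transcripts, 5 had no symbol (at most 0.00534% of reads) and were left out. RPKM steps gave whole reads for at least 99.98% of nonzero values in each library. The tolerance was 0.05 read plus an allowance for rounding that grew with transcript length and depth. Libraries of a group differed by at least 12.4 times the counting variance, more than 1 library sequenced again would show. Intervals of reads cover counting error only.

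Genes with a mean over 0.5 RPKM in either group (13933) were fitted as log2(RPKM + 0.1) with limma 3.58.1 (eBayes with trend, R 4.3.3) and Benjamini-Hochberg adjustment over all of them. The pseudocount of 0.1 understates changes of low genes. A call needed a log2 fold change over 1 in size at an adjusted p under 0.05. The members and lists were chosen with earlier results of these data known. Named genes were the members, at most 4 called genes per list and direction, 11 fixed signalling genes, and the 5 nearest genes of Saa1, Saa3, Lcn2, Orm2 and Hp. The fit was tested on simulated data. Alternatives were another pseudocount, filter, scaling, voom on the recovered reads, a replicate block and leaving out each mouse. Scaling by median ratios with AdVEGFA replicate 4 left out was chosen after seeing the data. Promoters came from RefSeq (GRCm38.p6) and transcripts from GENCODE. Python 3.11.15 did the rest.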

Additional observations from a re-analysis of the deposited data

Results flagged for a closer look

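In 49 genes and both groups (98 sets of 5 mice), 19 sets held a mouse whose gap to its nearest neighbour was over 0.71 of the whole range of its group, Dixon's critical value for 5 samples. Chance flags about 1 in 20 sets when values are normal and sets independent. These sets were RPKM of related genes in the same mice, so the count is not compared with that rate. AdVEGFA replicate 4 was the flagged mouse in 12 of the 19 sets, 9 of which were members. It was the highest of its group for Saa1 (4298 RPKM), Saa2 (3402), Saa4 (86.3), Orm1 (2409), Orm2 (1421), Hp (7756), Hpx (10729), Lcn2 (1599) and Apcs (995), and also for Itih3 (937 RPKM) and Mt2 (70.5 RPKM), and the lowest for Kdr (16.0 RPKM). Saa3 was the only member without such a value in either group.

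The other 7 sets involved no member. AdCMV replicate 3 was lowest for Apoa1 (1502 RPKM) and highest for Cd36 (96.5 RPKM) and Elane (0.139 RPKM). In the AdVEGFA group, replicate 5 was lowest for Cd3e (0.208 RPKM) and Elane (0.163 RPKM), replicate 3 was highest for Gzmb (1.90 RPKM), and replicate 2 was highest for Il6 (0.125 RPKM, from 1 read).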

How the results depend on the processing

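Direction of Saa1, Saa2, Saa3 and Saa4 was lower in AdVEGFA under every alternative run, with log2 fold changes from -5.80 to -4.81 for Saa3, -1.81 to -1.04 for Saa4, -2.48 to -0.31 for Saa1 and -2.82 to -0.37 for Saa2; Hpx and Apcs were higher under every one, and Orm1, Orm2, Hp and Lcn2 changed sign without passing the threshold in the higher direction. Among all genes, 1082 were higher and 438 lower after median-ratio scaling, 1125 and 393 after upper-quartile scaling, 1059 and 446 without major urinary protein reads, 1079 and 400 after median-ratio scaling without AdVEGFA replicate 4, and 954 higher with a pseudocount of 1. Each of these 4 scalings gave 1 other positive acute-phase gene higher and 4 lower, 1 negative one higher, 0 IL-6 family genes and 0 IL-1, TNF and NF-kappaB genes higher, 2 of the latter lower, and 1 hepatocyte marker lower; the one without AdVEGFA replicate 4 gave 5 members lower and 2 neutrophil markers higher. A pseudocount of 1 gave 0 IL-6 and 0 IL-1 genes higher, 1 receptor higher and 0 lower, 1 neutrophil marker higher and 2 T and NK cell markers lower. A filter at 1 RPKM gave 1 neutrophil marker higher, against 1596 of all 12733 genes tested. No filter gave 3 negative genes higher, against 1934 of 18554. With voom, 1 of 10 members (Apcs), 2 of 12 IL-6 genes and 1 of 10 hepatocyte markers were higher, against 2301 of all 13933 genes. Cause was not tested for any of these. Leaving out 1 mouse at a time gave 0 to 1 members higher and 2 to 5 lower (5 without AdVEGFA replicate 4), 1 to 3 other positive genes higher and 2 to 4 lower, 4 to 5 negative genes higher, 0 to 2 IL-6 genes higher, 0 to 1 IL-1 genes lower, 0 to 1 receptors lower, 3 to 5 macrophage markers higher, 2 to 4 neutrophil markers higher, 0 to 1 hepatocyte markers higher, and a median r of 0.381 to 0.898; all genes higher ranged from 1425 (without AdCMV replicate 4) to 2357 (without AdCMV replicate 3). The replicate block, fitted because both groups carry numbers 1 to 5, gave 1933 genes higher and 256 lower, 1 member higher and 1 IL-1 gene lower. Same-numbered mice had deviations with r of 0.0357, 0.109, 0.00763, 0.096 and 0.291. Of the 5 AdCMV mice, 3 correlated best with their own number. The main fit did not take the numbers as pairs, and whether same-numbered mice shared a batch was not tested. With 5 mice per group and 1 of them far from the rest, precision for Saa1, Saa2 and Lcn2 is set by the number of mice and not by depth.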

Other observations

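Orm3, a low-level orosomucoid copy that is 86.1% identical to Orm1 in its transcript, ranged from 7.07 to 21.4 RPKM in AdCMV mice and from 5.83 to 35.5 RPKM in AdVEGFA mice, with the highest value in replicate 4.

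Counted over all genes tested, 12 lay more than 2 on the log2 scale above the other 9 mice in AdVEGFA replicate 4 and 0 to 9 did so in each other mouse. In the other direction the counts were 18 in AdVEGFA replicate 4 and 22 in AdCMV replicate 4. This measure was chosen after the data were seen.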
